A study of Mus musculus with 8 samples.

Results

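The set described here holds 10 genes of NF-kB signalling and inflammatory adhesion, chosen by symbol: Nfkb1, Nfkb2, Rela, Relb, Nfkbia, Nfkbiz, Tnfaip3, Birc3, Icam1 and Vcam1. A probe set with a single gene symbol was found for 9 of the 10, among 22180 genes measured in all, and Nfkb1 was not analysed here. NF-kB is a family of dimeric transcription factors that inhibitors of the IkB family hold in the cytoplasm. When receptors for cytokines or danger signals are engaged, the IKK kinases mark the inhibitor for degradation and the dimer enters the nucleus. Its targets include its own inhibitors, which close a feedback loop, and surface proteins that leukocytes bind, and in the skin the pathway is known for its part in inflammation and in the secretory programme of senescent cells.

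The samples were cultures of mouse melanocytes, the pigment cells of the skin, taken from pups 1 to 5 days old, kept for 22 days in melanocyte medium and labelled female. All cells carried floxed Atg7 alleles (Atg7 f/f). Those called KO also carried Tyr::Cre, a recombinase under the tyrosinase promoter that deletes Atg7 in pigment cells and so removes an enzyme needed for autophagy, and those called WT had no Cre. Cells of each genotype received 20 J/cm² UVA-1 or a sham treatment 6 h before RNA isolation, giving 4 groups (WT sham, WT UVA-1, KO sham, KO UVA-1) of 2 arrays each. The submitters call the duplicates biological, and the titles number them 1 and 2 in every group without saying how many pups stand behind a number. The title of the series puts the question whether autophagy deficient melanocytes secrete senescence-associated factors, to which NF-kB target genes belong.

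Levels are log2 intensities of Affymetrix whole-transcript probe sets, and differences are given on the same log2 scale. The deposited array medians lay between 110 and 115 on the linear scale, and precision is limited by having 2 arrays a group. The arrays grouped by replicate number more than by genotype or treatment. The 13 melanocyte markers checked had a mean level of 11.26 to 11.39 on the arrays of number 1 and of 12.12 to 12.57 on those of number 2. The 12 fibroblast markers averaged 11.58 to 11.73 in number 1. In number 2 they averaged 9.38 to 9.56 in WT and 10.45 to 10.52 in KO, so that fibroblast marker RNA was present on every array and differed between the genotypes in number 2. Their summed intensity was 52685 to 55906 in number 1, and in number 2 it was 10137 and 11532 in WT against 21860 and 23556 in KO. Fewer cells of a type and less RNA per cell cannot be told apart in such bulk samples. The mean level of the marker lists was 6.77 to 7.08 for myeloid cells (12 genes), 6.89 to 7.24 for endothelial cells (10), 6.57 to 6.83 for keratinocytes (9 of 10 listed) and 4.78 to 4.89 for mast cells (8). Atg7 itself read 0.39 lower in KO (limma, replicate number as a block, adjusted p = 0.297), and the table used does not say whether its probes lie in the deleted part.

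The sequences below are shown because they belong to members the results turn on and hold a match to an NF-kB motif close to the gene start. RefSeq (GRCm38.p6) gave promoter windows of 300 bases (250 before to 50 after the start) for 6 members, with 9 windows in all. The bases before the start are printed 5′ to 3′ on the strand of the gene, for Nfkbia at chr12:55492648-55492897 (minus strand), for Tnfaip3 at chr10:19015411-19015660 (minus strand) and for Icam1 at chr9:21015690-21015939 (plus strand). Capitals mark matches to the 10-letter kB consensus or to the 9-letter motif GGAATTTCC, which reads GGAAATTCC on the other strand.

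Nfkbia: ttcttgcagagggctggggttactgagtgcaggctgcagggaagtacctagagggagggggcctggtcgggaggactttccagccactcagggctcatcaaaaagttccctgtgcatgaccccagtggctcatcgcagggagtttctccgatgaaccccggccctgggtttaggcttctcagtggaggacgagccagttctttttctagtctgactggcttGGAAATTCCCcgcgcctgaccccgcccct
Tnfaip3: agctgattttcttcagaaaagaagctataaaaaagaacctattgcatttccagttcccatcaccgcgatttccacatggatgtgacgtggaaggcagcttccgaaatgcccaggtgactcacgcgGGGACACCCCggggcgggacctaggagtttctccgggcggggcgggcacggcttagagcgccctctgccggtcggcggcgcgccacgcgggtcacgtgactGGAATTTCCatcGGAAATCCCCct
Icam1: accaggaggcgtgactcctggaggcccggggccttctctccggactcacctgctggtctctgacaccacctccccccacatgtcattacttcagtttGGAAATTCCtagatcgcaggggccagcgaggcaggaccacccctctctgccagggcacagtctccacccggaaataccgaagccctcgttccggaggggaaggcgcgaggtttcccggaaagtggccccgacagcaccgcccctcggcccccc

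The 9-letter motif GGAATTTCC, searched on both strands, was found in 3 of the 9 windows of the members, and in 0.317% of all 32841 windows of this length. These belong to 3 of the 6 members with an entry, against 0.381% of all genes with one, and they are the 3 printed here for holding such a match, so nothing is read from the count. Its first base lay 29 bases before the start in Nfkbia, 24 in Tnfaip3 and 153 in Icam1. The 10-letter kB consensus was found in 5 of the 9 windows, of Nfkbia (where it overlaps the 9-letter match), Tnfaip3 and Nfkb2, and in 8.46% of all windows. In Tnfaip3 it matched at 125 and 12 bases before the start, in 1 of the 2 windows listed for the gene. Nfkb2 had 3 windows, 2 of which overlap, and each held the consensus, among them GGGGCTTTCC at 11 bases before the first listed start. The AP-1 motif TGANTCA was found in 2 of the 9 windows, of Nfkb2 and Tnfaip3 (7.81% of all windows), and the GC box GGGCGG in 6 of the 9, of 5 members, all but Birc3 (35.7% of all windows). These matches describe letters in a window and show no binding.

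No member passed the test between KO and WT over both treatments. The test was limma with the replicate number as a block, adjusted by Benjamini-Hochberg over all genes at 0.05: 0 of 9 members passed, and 0.0316% of all genes did. At an unadjusted p under 0.05 there were 5 members, Nfkbia, Tnfaip3, Birc3, Icam1 and Vcam1, and 8.88% of all genes. Without the block limma also passed 0 members, with 1 (Nfkbia) at an unadjusted p under 0.05, against 2.33% of all genes. For 6 of the 9 members, Rela, Nfkbia, Nfkbiz, Tnfaip3, Birc3 and Vcam1, KO was the higher array in every pair (7.65% of all genes). The 9 differences ranged from 0.05 to 0.81, all above 0, with a median of 0.24, while the median over all genes was -0.01 and 45.8% of all genes were above 0. The blocked fit enters the sham and UVA-1 arrays of 1 genotype and number as separate arrays, and p-values are too small if these are not independent. With the arrays of 1 genotype and number averaged first, limma passed 0 members and 0% of all genes (Nfkbia adjusted p = 0.996). In that fit 2 members had an unadjusted p under 0.05, against 3.32% of all genes.

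**Figure D1:**
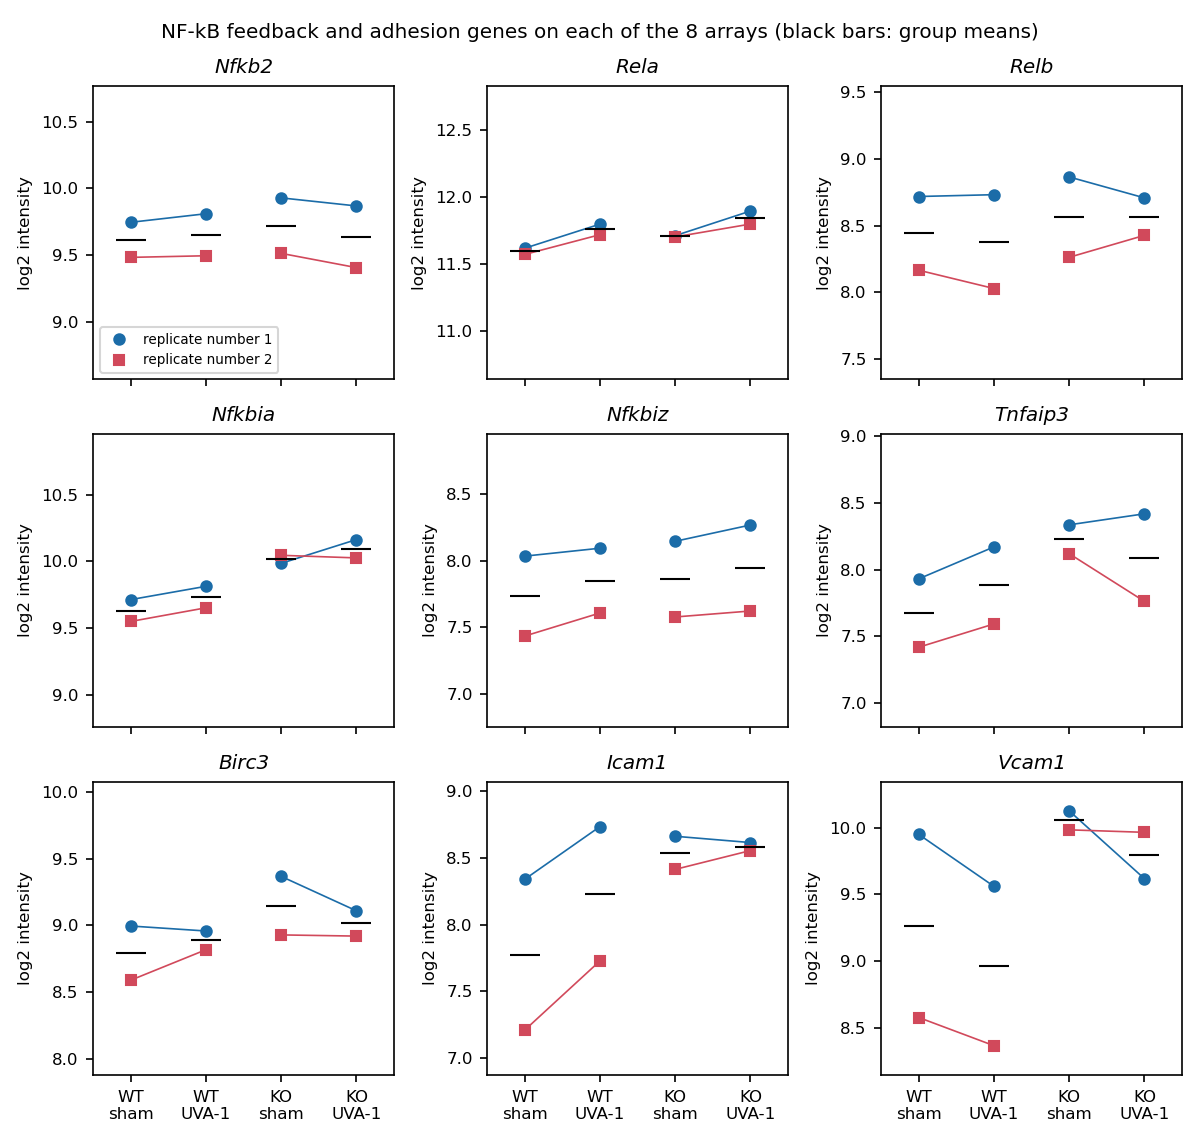
Log2 intensity (vertical axes, each spanning the same range) of the 9 measured genes on the 8 arrays by group, with circles for replicate number 1, squares for number 2, lines joining sham and UVA-1 arrays of a genotype and number, and black bars for group means of 2 arrays. The 4 KO arrays of Nfkbia lie above its 4 WT arrays. Relb, Nfkbia, Tnfaip3, Birc3, Icam1 and Vcam1 are lowest on the WT arrays of number 2.

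Nfkbia encodes IkB-alpha, the inhibitor that retains NF-kB in the cytoplasm and is itself an early NF-kB target. It read 9.71 and 9.55 in WT sham (numbers 1 and 2), 9.81 and 9.65 in WT UVA-1, 9.98 and 10.04 in KO sham, and 10.16 and 10.03 in KO UVA-1. All 4 KO arrays lay above all 4 WT arrays, which 0.866% of all genes did in this direction and no other member did. The averaged difference was 0.37 (SE 0.07, 1.29-fold, 95% interval 0.22 to 0.53; limma adjusted p = 0.297 with the block). It was above 0 in 4 of 4 pairs of arrays of the same treatment and number, with 0.31 in number 1 and 0.43 in number 2. The median difference of the fibroblast markers was -0.01 in number 1 and 1.12 in number 2. Their part in the difference of Nfkbia was not tested.

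Tnfaip3 encodes A20, a ubiquitin-editing enzyme that shuts off signalling to IKK. It read 7.93 and 7.42 in WT sham, 8.17 and 7.59 in WT UVA-1, 8.34 and 8.12 in KO sham, and 8.42 and 7.76 in KO UVA-1. Both KO sham arrays lay above both WT sham arrays, while after UVA-1 the groups overlapped across numbers. The difference was 0.55 after sham (SE 0.13, limma adjusted p = 0.845) and 0.21 after UVA-1 (SE 0.13, adjusted p = 0.957), and 0.38 on average (SE 0.09, 95% interval 0.17 to 0.60, adjusted p = 0.41). Within numbers the average was 0.33 and 0.44.

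Birc3 encodes cIAP2, a ubiquitin ligase of TNF receptor complexes that also restrains the non-canonical pathway. It read 8.99 and 8.59 in WT sham, 8.96 and 8.82 in WT UVA-1, 9.37 and 8.93 in KO sham, and 9.11 and 8.92 in KO UVA-1. KO was the higher array in 4 of 4 pairs, by 0.37 and 0.34 after sham and by 0.15 and 0.10 after UVA-1. The genotypes overlapped across numbers, and the averaged difference of 0.24 (SE 0.08, 1.18-fold) had a limma adjusted p of 0.517. Nfkbiz encodes IkB-zeta, a nuclear member of the IkB family that is needed to transcribe a subset of NF-kB targets. Its difference was 0.11 (95% interval -0.05 to 0.27, limma adjusted p = 0.666), above 0 in 4 of 4 pairs by 0.01 to 0.17, while its 8 arrays ranged from 7.43 to 8.27.

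Of the NF-kB subunits, Rela encodes p65, the main transactivating subunit of the canonical pathway. It read 11.62 and 11.57 in WT sham, 11.80 and 11.72 in WT UVA-1, 11.71 and 11.70 in KO sham, and 11.90 and 11.80 in KO UVA-1. Its arrays spanned only 0.33 in all, the narrowest range among the 9 members, and within each treatment both KO arrays lay above both WT arrays, after UVA-1 by the smallest of margins (11.7985 against 11.7981). The averaged difference was 0.10 (SE 0.04, 95% interval -0.01 to 0.21, limma adjusted p = 0.574). Relb, the partner of p52 in the non-canonical pathway, differed by 0.15 (95% interval -0.05 to 0.36, adjusted p = 0.629), with 3 of 4 pairs above 0. Nfkb2, which encodes p100, the precursor of p52, differed by 0.05 (95% interval -0.11 to 0.20, adjusted p = 0.859). Its 4 pairs lay between -0.09 and 0.18.

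Icam1 and Vcam1 encode adhesion proteins of the immunoglobulin family, which bind leukocyte integrins (LFA-1 and Mac-1 for ICAM-1, VLA-4 for VCAM-1). Both are classical NF-kB targets that cells of other kinds, fibroblasts among them, can also express. They had the largest averaged differences of the members, and these lay mostly in replicate number 2.

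Icam1 read 8.34 and 7.21 in WT sham, 8.73 and 7.73 in WT UVA-1, 8.66 and 8.41 in KO sham, and 8.61 and 8.55 in KO UVA-1. The 2 WT arrays of number 2 stood below the other 6. The averaged difference was 0.56 (SE 0.19, 1.47-fold, limma adjusted p = 0.532). It was 0.10 in number 1 and 1.02 in number 2, and after UVA-1 it was -0.12 in number 1 and 0.83 in number 2. Vcam1 read 9.95 and 8.58 in WT sham, 9.56 and 8.37 in WT UVA-1, 10.13 and 9.98 in KO sham, and 9.62 and 9.97 in KO UVA-1. Again the 2 WT arrays of number 2 were the lowest, by more than 0.9 from the next array. The averaged difference was 0.81 (SE 0.28, 1.75-fold, limma adjusted p = 0.532), with 0.12 in number 1 and 1.50 in number 2.

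In KO minus WT, fibroblast markers moved with both adhesion genes in number 2. On the KO arrays (sham, UVA-1) the marker mean was 11.73 and 11.60 in number 1 and 10.52 and 10.45 in number 2. On the same arrays Icam1 read 8.66 and 8.61 in number 1 and 8.41 and 8.55 in number 2. Vcam1 read 10.13 and 9.62 in number 1 and 9.98 and 9.97 in number 2. Of the 12 markers, 6 were higher in KO in number 1 and 11 in number 2. Over all genes 49.9% were higher in KO in number 1 and 44.5% in number 2, the shares to set beside each marker count here. The WT arrays of number 2 were lowest for the marker mean, Icam1 and Vcam1. They were also lowest for Relb, Nfkbia, Tnfaip3 and Birc3. Of the 13 melanocyte markers, 8 were higher in KO in number 1 and 0 in number 2, where their median difference was -0.34. Of the 12 myeloid markers, 3 and 7 were higher in KO, with medians of -0.08 and 0.03. The largest differences of that list, picked after the values were seen, were those of the lysozyme gene Lyz2 (1.70) and the tetraspanin gene Cd53 (1.47) in number 2, where the other 10 markers lay between -0.23 and 0.25. Ptprc, which encodes the leukocyte antigen CD45, lay between 4.86 and 5.09 on all arrays. The medians of the other lists in numbers 1 and 2 were 0.01 and 0.10 for endothelial, -0.02 and 0.15 for keratinocyte and 0.07 and -0.02 for mast cell markers. The part of these cell types in the adhesion gene differences was not tested.

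**Figure D2:**
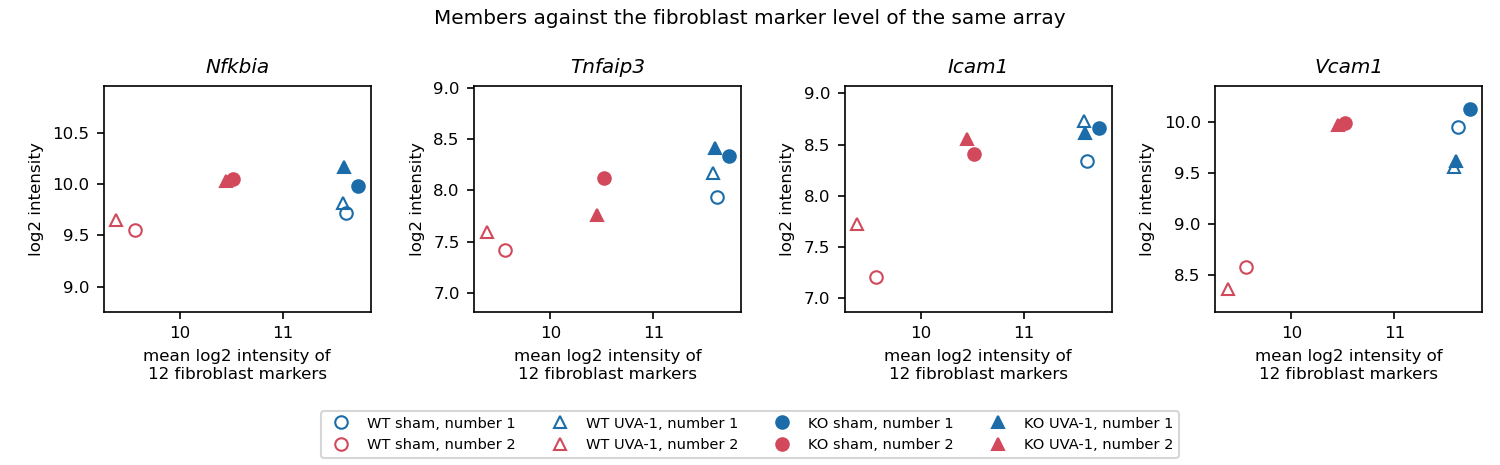
Log2 intensity of Nfkbia, Tnfaip3, Icam1 and Vcam1 (vertical axes) against the mean log2 intensity of 12 fibroblast markers on the same array (horizontal axes), with open symbols for WT, filled for KO, circles for sham, triangles for UVA-1, blue for number 1 and red for number 2. The WT arrays of number 2 have the lowest marker means, 9.38 and 9.56, and the lowest levels of each gene shown. Nfkbia and Tnfaip3 also separate by genotype within each number.

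Separately after sham and after UVA-1, limma with the block passed 0 of 9 members in each (0% of all genes in both). At an unadjusted p under 0.05 there were 4 members after sham (5.55% of all genes) and 1, Nfkbia, after UVA-1 (4.18%). Without the block there was 1 in each (2.01% and 1.59% of all genes). After sham all 9 members were above 0 in both numbers, which held for 23% of all genes, and after UVA-1 it was 6 of 9 (19%). Both KO arrays lay above both WT arrays for 5 members after sham, Rela, Nfkbia, Tnfaip3, Icam1 and Vcam1 (8.91% of all genes), and for 3 after UVA-1, Rela, Nfkbia and Vcam1 (6.98%). Nfkbia differed by 0.38 after sham and 0.36 after UVA-1 (SE 0.09 for both). For Icam1 the values were 0.76 and 0.35 (SE 0.27), and for Vcam1 0.79 and 0.83 (SE 0.39). The median of the members was 0.36 after sham and 0.19 after UVA-1.

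**Figure D3:**
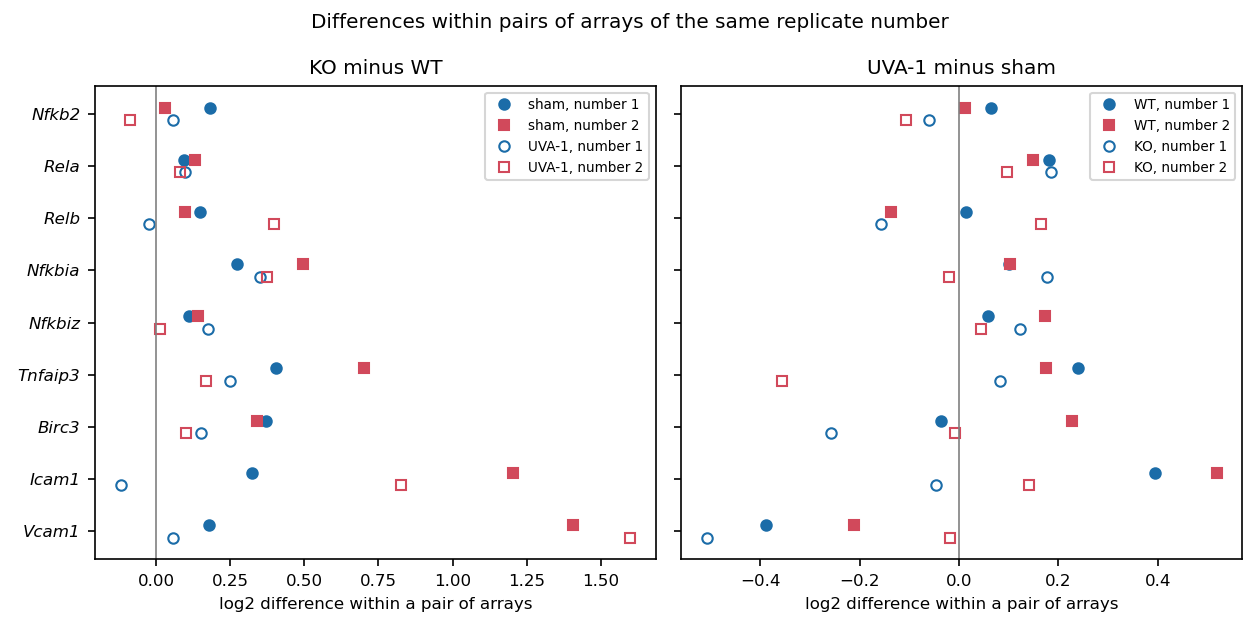
Log2 differences within pairs of arrays of the same replicate number for the 9 genes, KO minus WT on the left and UVA-1 minus sham on the right, with blue circles for number 1, red squares for number 2, and filled and open symbols for the sham and UVA-1 pairs (left) or the WT and KO pairs (right). For Nfkbia the 4 genotype differences lie between 0.27 and 0.50, while for Vcam1 they are 0.18 and 0.06 in number 1 and 1.41 and 1.60 in number 2.

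The comparison of UVA-1 with sham asks what irradiation did to these genes 6 h later, and most members differed little. Averaged over genotypes, limma with the block passed 0 of 9 members and 0.0135% of all genes, with 1 member, Rela, at an unadjusted p under 0.05 (6.54% of all genes). Without the block there were 0 at either limit (0% and 1.81%). When the blocks were the 4 genotype-by-number combinations, so that sham and UVA-1 arrays were compared within each, 0 members and 0.437% of all genes passed, and 3 members had an unadjusted p under 0.05 (12.6%). The median of the 9 differences was 0.03, with 5 above 0 and 4 below, and the median over all genes was 0.00.

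Rela had all 4 UVA-1 arrays above all 4 sham arrays, as 1.23% of all genes did, though the lowest UVA-1 array (11.719) was close to the highest sham array (11.7117). Its difference was 0.15 (SE 0.04, 1.11-fold; limma adjusted p = 0.708 with the block and 0.143 with the block within genotype), and 0.10 to 0.18 in the 4 pairs. Icam1 was higher after UVA-1 in WT, by 0.39 in number 1 and 0.52 in number 2, and in KO it differed by -0.05 and 0.14. In WT the mean was 0.46 (1.37-fold; limma adjusted p = 1 with the block and 0.268 with the block within genotype). It was 0.11 without the WT sham array of number 2 and 0.80 without that of number 1, and 0.19 and 0.72 without the WT UVA-1 arrays of number 1 and number 2. Each of these fits breaks a WT pair and takes up the difference between the numbers, so the values are not within-pair differences. Vcam1 ran the other way from Icam1: it was lower after UVA-1 in 4 of 4 pairs (9.08% of all genes were), by 0.39 and 0.21 in WT and by 0.51 and 0.02 in KO. Its averaged difference was -0.28 (SE 0.28, limma adjusted p = 0.907, and 0.206 with the block within genotype).

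Tnfaip3 was higher after UVA-1 in WT by 0.24 and 0.17, and in KO the differences were 0.08 and -0.36. Nfkbia differed by 0.10 in WT in both numbers and by 0.18 and -0.02 in KO. Nfkbiz was above 0 in 4 of 4 pairs, by 0.04 to 0.17 (10.6% of all genes were above 0 in every pair). Birc3, Relb and Nfkb2 had averaged differences of -0.02, -0.03 and -0.02, with pairs on both sides of 0.

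In WT alone limma with the block passed 0 members and 0.00451% of all genes, in KO alone 0 members and 0.00902%, and for the interaction, which tests whether the UVA-1 difference depends on the genotype, 0 members and 0%. With the block within genotype 0 members passed in any of them, against 0.0541%, 0.00902% and 0% of all genes. At an unadjusted p under 0.05 the members counted 1, 0 and 0 with the replicate block (3.94%, 4.02% and 2.06% of all genes). They counted 0 in each without a block (1.54%, 1.57% and 1.33%), and 3, 1 and 1 with the block within genotype (8.41%, 8.49% and 3.45%). The interaction was below 0 in both numbers for 4 members, Nfkb2, Tnfaip3, Birc3 and Icam1, and 26.2% of all genes were. It was -0.41 for Icam1 (95% interval -1.298 to 0.48), -0.34 for Tnfaip3 (-0.77 to 0.09), -0.23 for Birc3 and -0.12 for Nfkb2, each with a limma adjusted p of 1. Both intervals come from the fit with the replicate block and include 0. That fit does not compare sham and UVA-1 arrays within each genotype and number. In the fit that does, Icam1 was the 1 member under 0.05 (limma unadjusted p = 0.0168), and no member passed after adjustment.

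Genes with other roles in the pathway were read from lists by role, and no gene of any list passed limma with the block in the averaged genotype comparison, in the averaged UVA-1 comparison or in the interaction. In KO minus WT 45.8% of all genes were above 0, the share to set beside each list count. The list of other subunits and IkB proteins (8 of 9 measured) also held Nkrf and Pdcd11, which are neither. Of its genes 4 were above and 4 below 0, with a median of -0.01. That median was 0.11 in number 1 and -0.11 in number 2. Bcl3, a nuclear IkB protein that binds p50 and p52, had the largest difference of this list, 0.44 (SE 0.06, adjusted p = 0.214), 0.40 in number 1 and 0.48 in number 2. It also differed by 0.18 between UVA-1 and sham, above 0 in 4 of 4 pairs.

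The 17 measured IKK and upstream kinases of 22 had a median of 0.02 in KO minus WT, with 10 above 0 (45.8% of all genes). Irak3, which lacks kinase activity and dampens Toll-like receptor signalling, had 0.32 (SE 0.07, adjusted p = 0.385), and Map3k8, also called TPL2, had 0.23. In the UVA-1 comparison 16 of these 17 were above 0, with a median of 0.11, against 51% of all genes above 0. Tbk1 led with 0.24 (SE 0.10, limma adjusted p = 0.734). The 25 adaptors and ubiquitin ligases had a genotype median of 0.03 (16 above 0), with Peli2, a ubiquitin ligase that acts on IRAK proteins, at 0.48 and the signalling adaptor Bcl10 at 0.27, and a UVA-1 median of 0.07. Traf5 was lower after UVA-1 by 0.29, in 4 of 4 pairs. The 19 negative regulators had a median of 0.02 in KO minus WT, 12 of them above 0, led by Rnf11, a partner of A20, at 0.33, and a UVA-1 median of 0.06.

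The receptors (25 of 26 measured) had a median of 0.08 in KO minus WT, and 15 were above 0 (45.8% of all genes). Il1r1, the interleukin-1 receptor, differed by 1.05, made up of 0.08 in number 1 and 2.03 in number 2. Tlr2 differed by 0.29, with 0.34 and 0.24. The ligands (19 of 20) had a median of -0.01, and 9 were above 0. Il33, an alarmin of the interleukin-1 family, had 0.00 in number 1 and 2.71 in number 2, so that in KO minus WT Il33 and Il1r1 shared the pattern of Vcam1 across numbers. The median difference of the fibroblast markers was -0.01 in number 1 and 1.12 in number 2, and their part was not tested. The UVA-1 medians were 0.01 for receptors and 0.01 for ligands, with Tnfrsf10b, a death receptor and p53 target, at 0.29.

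Other NF-kB targets (34 of 37) had a median of 0.23 in KO minus WT. Of these, 27 were above 0 (45.8% of all genes) and 11 above 0 in every pair (7.65%). The chemokine genes Cxcl10 (1.62, 1.73 in number 1 and 1.51 in number 2) and Ccl5 (1.21, 0.94 and 1.47) led the list, with limma adjusted p of 0.135 and 0.078. Within numbers 1 and 2 the medians of these targets were 0.09 and 0.21, and those of the 9 members 0.12 and 0.25. After UVA-1 the list had a median of -0.02, with Cxcl10 at -0.52 (-0.02 in number 1 and -1.02 in number 2) and Ch25h, the cholesterol 25-hydroxylase, at -0.45 (-0.94 and 0.03). Adhesion genes of vessels and leukocytes (28 of 29) had a genotype median of 0.04, -0.01 in number 1 and 0.11 in number 2, with Cd34 at 0.71 (0.38 and 1.03) and Vcan, which encodes the matrix proteoglycan versican, at 0.65 (0.13 and 1.17). In number 2 the fibroblast markers moved with both, and their part was not tested. In the UVA-1 comparison 20 of the 28 were below 0, with a median of -0.04, while 51% of all genes were above 0. Sele, which encodes E-selectin, was not higher in KO on average (-0.16, SE 0.19).

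**Figure D4:**
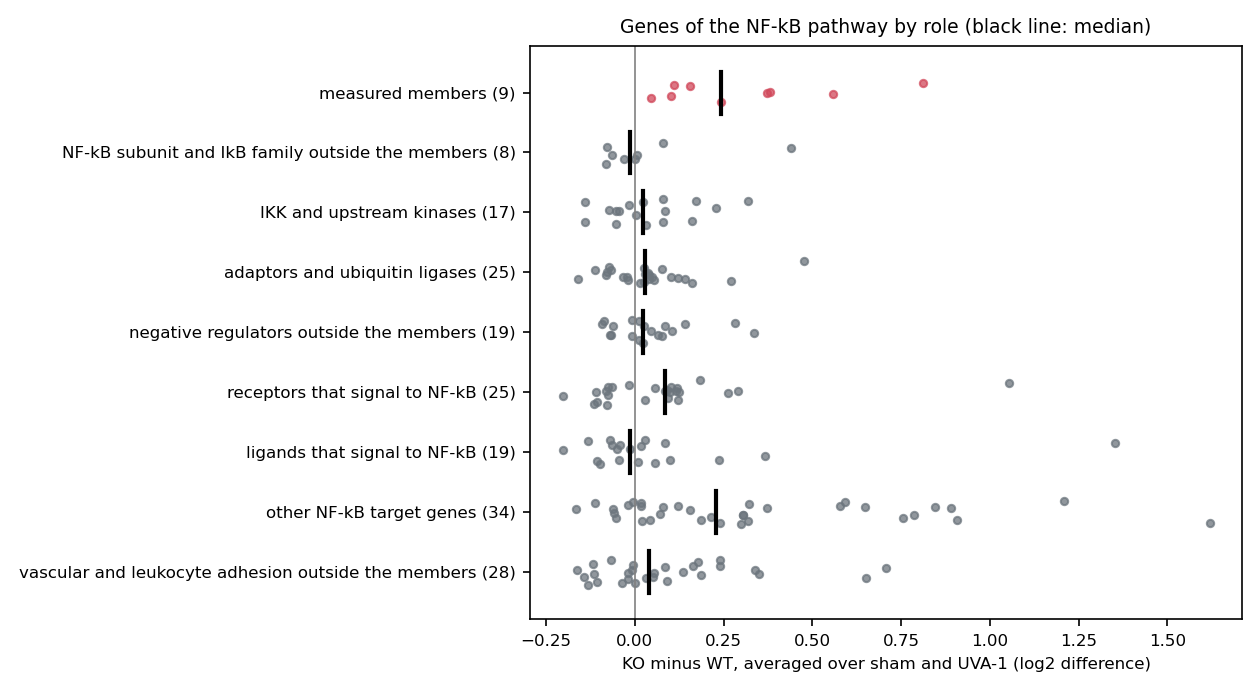
KO minus WT log2 difference averaged over sham and UVA-1 (horizontal axis) for each measured gene of the set (red) and of 8 lists of pathway genes (grey), with the number of genes in brackets and a black line at the median. The medians of the set and of other NF-kB targets are 0.24 and 0.23, and those of the other 7 lists lie between -0.01 and 0.08. The averages hide differences between numbers. In number 1 the median of the subunit and IkB list was 0.11 and that of other targets 0.09. In number 2 they were -0.11 and 0.21.

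Likeness across the 8 arrays was read as Pearson correlation of log2 levels among 16399 other genes with a mean level of at least 6. Arrays of 1 genotype and number may share a culture, and the arrays fall into the 2 replicate numbers, so these values are a description. Closest to Nfkbia were Creb5 (r = 0.97), Pcsk4 (0.95) and Fgf21 (0.95), and to Tnfaip3 Syt13 (0.98), Slc10a6 (0.97) and Gas2l1 (0.96). Closest to Icam1 were Btg2 (0.99), Plod2 (0.98) and Osr2 (0.97), and to Vcam1 Dgkk (0.99), Ltbp1 (0.99) and Tmem47 (0.99). With only 3 genes kept per member, that no gene is shared says nothing about how alike the members are. Among these 4 members themselves r lay between 0.71 and 0.85. Every one of the 9 members read lower in number 2 than in number 1, with a median of -0.49 and a range of -0.61 to -0.06, while 48.4% of all genes were lower there. The order by that difference ran from Icam1 (-0.61), Vcam1 (-0.59) and Nfkbiz (-0.57) to Nfkbia (-0.10) and Rela (-0.06).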

How the data were processed

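The deposited intensity values are 1 per probe set and array on a linear scale, rounded to whole numbers. Per the submitters' processing notes the authors made them by robust multi-array averaging (RMA) in Affymetrix Expression Console 1.3.1.187. Log2 was taken here before any test. Genes were named from the platform annotation (23521 probe sets with 1 symbol, 1814 with several and 16010 with none in the table used), keeping the brightest single-symbol probe set of a gene, which gave 22180 genes. Each measured member had 1 probe set. Of these genes 21994 matched the RefSeq gene table by Entrez identifier.

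Groups and numbers came from the titles. Arrays with the same number deviated together from their group means (r = 0.80 to 0.92 for the 6 pairs of groups), which was taken as pairing, so the replicate number is a block in the fit (limma 3.58.1, R 4.3.3, eBayes with a trend, 3 residual degrees of freedom, two-sided, Benjamini-Hochberg over all genes, threshold 0.05). The rule for the members also pairs arrays by number. Where cultures do not differ by animal, p-values measure only the spread between these samples. Members, gene lists and tests were chosen with earlier results of these data known. Named from each list were the genes, at most 2 per comparison, with the largest absolute averaged differences and a mean log2 level of at least 6; Ptprc, Lyz2 and Cd53 were picked after their values were seen. The fit was tested on simulated data.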

Additional observations from a re-analysis of the deposited data

How the results depend on the processing

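In all 7 comparisons the number of members past the adjusted threshold was 0 in every setting that kept all 8 arrays. These were no replicate block and the block within genotype (UVA-1 comparisons and interaction). For the averaged genotype comparison alone, the sham and UVA-1 arrays of 1 genotype and number were also averaged. Other settings were dim genes left out, mean of all probe sets, eBayes without a trend or robust, and a further quantile normalization. Each array was also left out in turn. The block within genotype could not be fitted to the genotype comparisons. Of the 48 single-gene differences recomputed, none changed direction or side of the threshold under the settings that kept all 8 arrays, replicate pairing included or not. With 1 array left out, 28 of 384 values changed direction. The differences then ranged, after UVA-1 in KO against WT, from -0.0142 to 0.72 for Icam1 and from -0.0806 to 0.0502 for Nfkb2. For UVA-1 against sham averaged over genotypes they ranged from -0.0700 to 0.0322 for Birc3, from -0.0564 to 0.0109 for Nfkb2, from -0.11 to 0.0556 for Relb, from -0.0567 to 0.13 for Tnfaip3 and from -0.59 to 0.0307 for Vcam1. For the interaction they ranged from -0.13 to 0.0854 for Nfkbia, from -0.0917 to 0.0264 for Nfkbiz, from -0.0565 to 0.0084 for Rela, from -0.10 to 0.23 for Relb and from -0.59 to 0.66 for Vcam1. Leaving out 1 array breaks its pair, and the fit then takes up the difference between the numbers, so these values are not within-pair differences. Vcam1 was lower after UVA-1 in 4 of 4 pairs. How far the broken pairing accounts for the changes of direction was not tested. Within a number, chosen after seeing the data, the median of the members was 0.12 (number 1) and 0.25 (number 2) for KO minus WT and 0.0907 and 0.0415 for UVA-1 minus sham. Rounding of the deposited intensities coarsens low values.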
